A study of Mus musculus with 3 samples.

Results

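Interleukins and the receptor chains that read them were followed in skin resident macrophages during telogen, the resting phase of the hair follicle cycle. The genes are those whose mouse symbol starts with Il and a number, without 11 genes that were left out (Il2rb and the core ligands, receptors, and inhibitors of interleukin 1, interleukin 18, and interleukin 33). RefSeq holds 73 such genes, and 70 of them had a probe on the array among 19738 genes with a probe in all. No probe was matched to Il11ra2, Il12b or Il4i1b. The 70 genes comprise 33 ligands, 35 receptor chains, and Il4i1 and Il1bos, which share the symbol but encode an amino acid oxidase and a transcript antisense to Il1b.

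Macrophages (CD11b+Gr1−F4/80+ cells) were sorted by FACS from the backskin of CD1 mice in early telogen (Te, postnatal day 42 by the labels), in mid telogen (Tm, day 55), and in late telogen (Tl, day 69), and no genotype or treatment set the groups apart. RNA of 3 littermates was pooled at each stage, amplified from very small amounts, and put with a single dye (Cy3) on 1 array, so that each stage is 1 array without a replicate and no difference between stages could be tested. The arrays were made to follow gene expression in these cells as the follicles approach a new growth phase.

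Interleukins are secreted proteins that immune and epithelial cells use to signal to each other through pairs of receptor chains, one of which is often shared by many ligands. The common gamma chain (Il2rg) serves the receptors for IL-2, IL-4, IL-7, IL-9, IL-15, and IL-21, the gp130 chain (Il6st) serves those of the IL-6 family, and both types signal through Janus kinases and STAT factors. IL-10 is an anti-inflammatory product of macrophages that also acts on them. In skin, the IL-17, IL-20, and IL-36 receptors are best known from keratinocytes and T cells, and IL-34 from the epidermis, where it maintains Langerhans cells through the receptor Csf1r.

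Levels are given as the log2 signal of a probe over the 75th percentile of its array, differences as log2 (later array minus Te), and a gene is called measured where the scanner software found its probe well above background. Where only 1 of the 2 arrays measured a gene, the difference is a lower bound of its size. The SD over repeated spots of 1 probe was 0.126 (Te), 0.108 (Tm), and 0.119 (Tl) on the log2 scale, which puts the spot error of a difference at 0.17. This covers the array surface and not the mice, the sort, or the amplification. The 75th percentile lay 22.5-fold (Te), 16.8-fold (Tm), and 34.9-fold (Tl) over the lowest signal that was well above background, and no spot was saturated. Te, Tm, and Tl below follow the scanner files as they were assigned to the samples. The authors' processed log2 table assigns these 2 later arrays the other way round: its Tm column matches the scanner file of Tl, and its Tl column that of Tm, in 100% of probes within 0.05. Which of the 2 assignments is right could not be told, so the order of the later stages is uncertain. With the table's assignment every Tm value below would be the Tl value and the reverse, and both are therefore given side by side.

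Of the 15 macrophage markers on the array all were measured on the 3 arrays, among them Csf1r (6.17, 6.84, and 6.30 at Te, Tm, and Tl), Adgre1, which encodes F4/80 (4.83, 5.48, and 5.13), and Itgam, which encodes CD11b (8.96, 8.70, and 7.83). Their median difference from Te was −0.26 at Tm and −0.38 at Tl (0.08 and 0.82 at Tl with quantile normalization and without scaling). Genes of other skin cells were also measured. All 15 keratinocyte markers were measured on every array, and 14 of them were at least 2-fold higher at Tm and 12 at Tl, with medians of 3.25 and 2.85 (2.91 to 3.55 at Tm and 2.67 to 4.04 at Tl over other scalings and normexp background correction). The summed level of the list was 8.14, 8.74, and 8.18 on the Te, Tm, and Tl arrays, most of it from Trp63 (8.04, 8.01, and 7.32). Without Trp63, which differed by −0.03 at Tm and −0.71 at Tl, the sum was 4.33, 7.42, and 7.01. In a bulk sample, fewer cells of a type and less RNA per cell cannot be told apart.

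Among the interleukins and receptors, 48 of 70 were measured at Te, 45 at Tm, and 52 at Tl, and 41 were measured on all 3 arrays. The shares over all genes were 77.7% at Te, 70.5% at Tm, 77.0% at Tl, and 66.3% on all 3. Receptor chains were measured more often than ligands: 27 of 35 receptor chains and 13 of 33 ligands were measured on every array. A further 13 genes were measured on none, against 16.0% of all genes. They are the ligands Il12a, Il1f10, Il1f6, Il1f9, Il21, Il23a, Il3, Il5, Il7, and Il9 and the receptor chains Il1rapl2, Il23r, and Il2ra. Il7 was at −6.54, −6.37, and −7.33 and Il12a at −6.60, −6.31, and −7.27, which is the floor of the signal on these arrays and does not show that the transcripts were absent.

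From Te to Tl, 53 of the 70 genes had a value, and 8 of these were at least 2-fold higher and 15 at least 2-fold lower. Of all genes, 21.3% were at least 2-fold higher and 21.7% at least 2-fold lower. The median was −0.14 for the 53 genes and 0.12 for all genes. From Te to Tm, 52 genes had a value, of which 13 were at least 2-fold higher and 9 lower, beside 28.2% and 17.6% of all genes, with medians of −0.22 and 0.18. The split moved with the scaling of the arrays. Quantile normalization gave 13 higher and 9 lower at Tl, and the 75th percentile over probes measured on all arrays gave 9 higher and 17 lower at Tm. Without any scaling, under which the median of all genes itself moved to 1.31 at Tl and 0.52 at Tm, 27 genes were higher and 2 lower at Tl. No interleukin or receptor passed 10-fold in either direction by its brightest probe, which 0.649% of all genes did upward and 0.538% downward at Tl, and 1.07% and 0.315% at Tm.

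**Figure D1:**
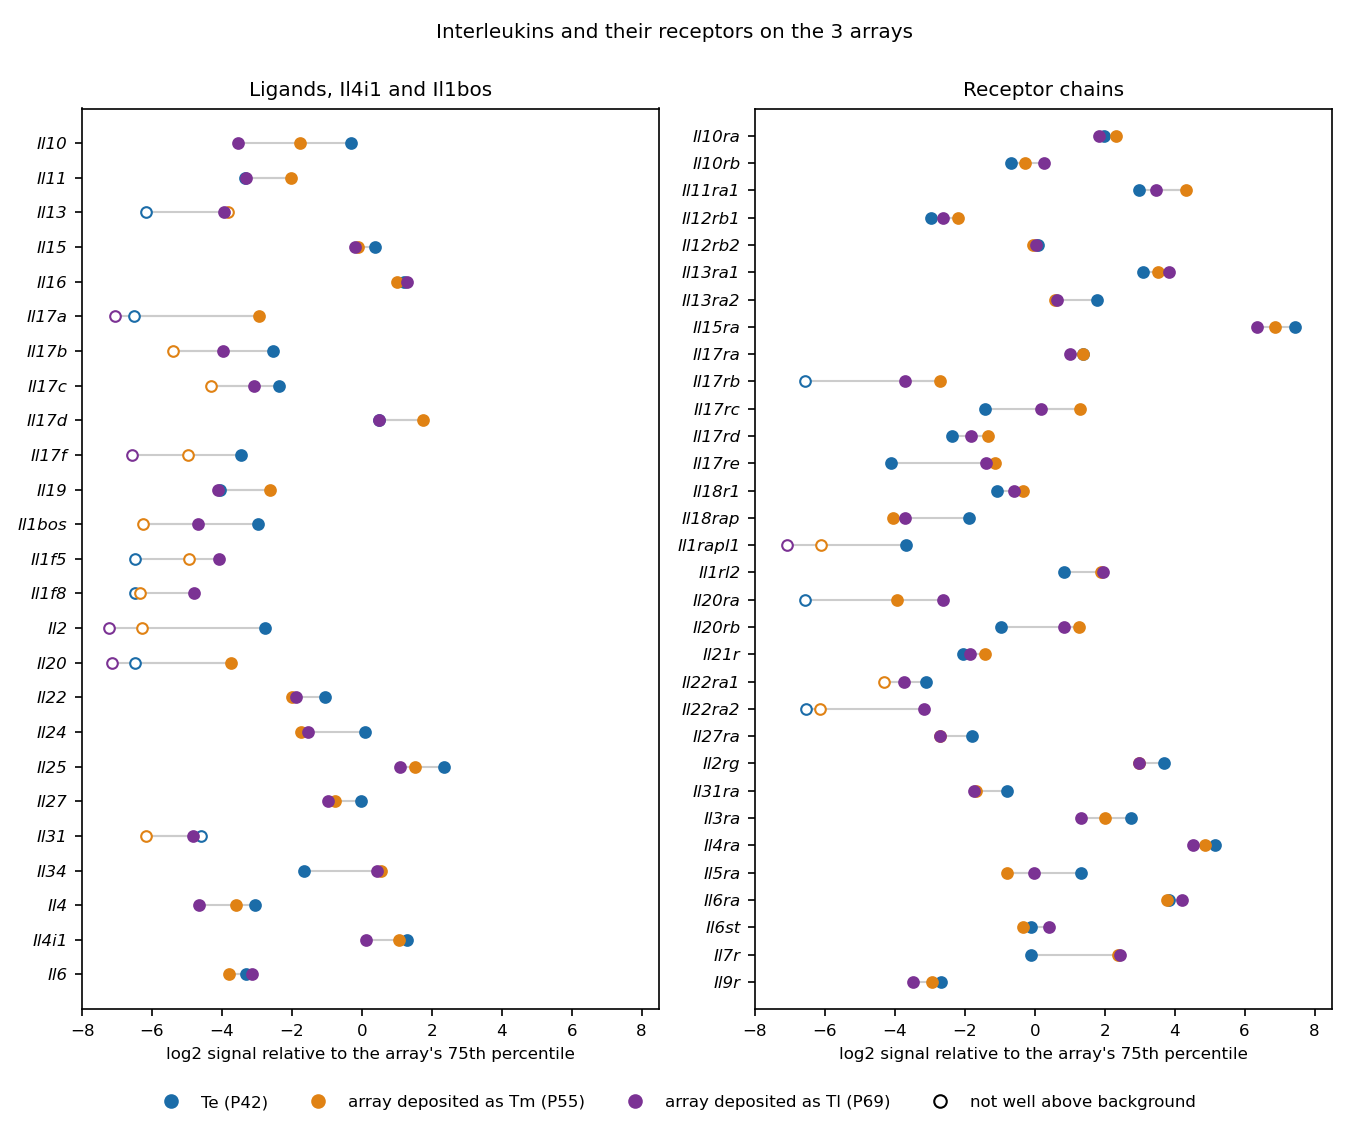
Log2 signal over the array's own 75th percentile (x axis) of the interleukins (left) and receptor chains (right) measured on at least 1 of the 3 arrays (y axis, 1 gene per row). Each point is 1 array, and open points were not well above background. Il10 steps down from Te (−0.32) to Tl (−3.53), and Il7r, Il34, Il20rb, Il17rc (by its brighter probe), and Il17re lie lowest at Te. Points of different genes come from different probes and cannot be ranked against each other.

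Ligands and receptor chains were described separately. Of 19 ligands with a value at Tl, 1 was at least 2-fold higher (Il34) and 7 lower (Il10, Il17b, Il17f, Il2, Il24, Il25, and Il4), with a median of −0.71 (−0.12 with quantile normalization and 0.60 without scaling). At Tm, 5 of 19 were higher (Il11, Il17a, Il17d, Il19, and Il34) and 5 lower (Il10, Il17b, Il17c, Il2, and Il24), with a median of −0.53. Of the receptor chains, 7 of 32 with a value were higher and 6 lower at Tl, and 8 of 31 were higher and 3 lower at Tm, with medians of 0.26 and 0.02 (−0.32 at Tm with the 75th percentile over measured probes). Over all genes, the shares were 21.3% higher and 21.7% lower at Tl, and 28.2% higher and 17.6% lower at Tm. The receptor chain shares at Tl (21.9% and 18.8%) lay near these. So did the shares higher at Tm of the ligands (26.3%) and the receptor chains (25.8%).

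Il10 was measured on all 3 arrays, by a probe with 10 spots on each. Its level was −0.32 at Te, then −1.77 at Tm and −3.53 at Tl. The Te level was thus the highest, and the 3 arrays were apart by far more than the spot error. The signal was 2.73-fold lower at Tm (log2 difference −1.45) and 9.25-fold lower at Tl (−3.21). Of 13081 genes measured on all 3 arrays, 23 had a larger decrease than Il10 from Te to Tl, and 932 had one from Te to Tm. With other scalings or background correction the difference at Tl lay between −3.38 and −2.02. In the authors' table the lowest Il10 value stands in the column labelled Tm (−3.18 from Te, against −1.41 in the column labelled Tl). The 5 genes whose differences came closest to those of Il10 among 13080 others on all 3 arrays were Siglecg (−1.43 at Tm and −3.32 at Tl), Vmn2r46, Speer1, Vmn2r35, and Olfr772, at distances of 0.111 to 0.332 on the log2 scale. Siglecg encodes a sialic acid binding receptor of leukocytes, and Vmn2r46, Vmn2r35, and Olfr772 belong to the pheromone and odorant receptor families.

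Both chains of the IL-10 receptor differed less than the ligand. Il10ra, the chain specific to IL-10, was at 1.97, 2.32, and 1.83 at Te, Tm, and Tl, a difference of 0.35 at Tm and −0.14 at Tl. Il10rb, which is shared with the IL-22 receptor, was at −0.67, −0.27, and 0.26, a difference of 0.40 and 0.93. The Tl level of Il10rb was thus the highest of its 3, short of 2-fold. A list of 10 genes known to respond to IL-10 in macrophages was measured in full on all arrays. None was at least 2-fold higher on either later array, and 4 were at least 2-fold lower on each, beside 17.6% of all genes at Tm and 21.7% at Tl. The list median was −0.40 at Tm and −0.83 at Tl, and without scaling −0.10 and 0.36. Socs3, an inhibitor of STAT signaling, stepped from 5.69 at Te to 5.19 at Tm and 4.62 at Tl. Cd163, the hemoglobin scavenger receptor, stepped from 4.19 to 2.96 and 2.60. Etv3, a transcriptional repressor, was at 1.33, −1.10, and −0.38, and Tnip3, an inhibitor of NF-κB signaling, at 1.77, −0.31, and −0.01, so that their lowest level was at Tm and not at Tl. Hmox1, which breaks down heme, differed by −1.15 and −0.81. Bcl3 (0.28 and −0.61), Nfil3 (−0.12 and −0.71), Sbno2 (−0.29 and −0.85), Zfp36 (0.81 and −0.05), and Ddit4 (0.92 and 0.32) stayed within 2-fold.

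**Figure D2:**
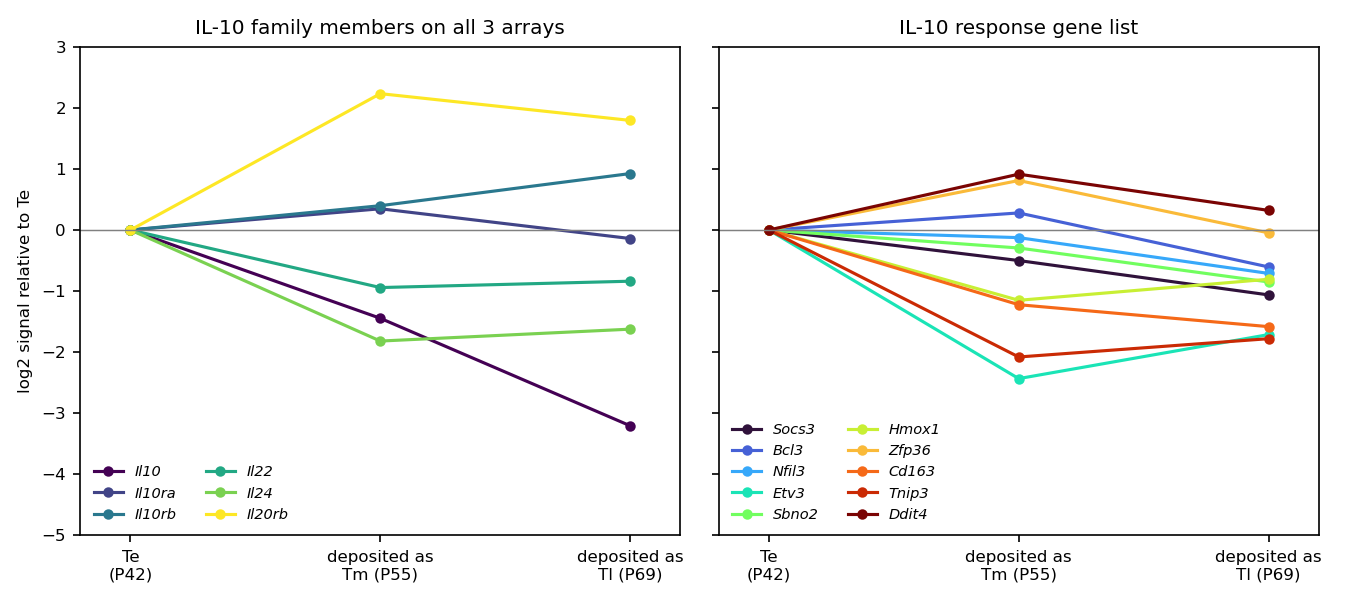
Log2 signal relative to Te (y axis) on the 3 arrays (x axis) for the IL-10 family genes that were measured on all of them, without Il19 (left), and for the IL-10 response genes of macrophages (right). Each point is 1 array, so there are no error bars. Il10 is the lowest line at Tl (−3.21) and its receptor chains stay within 2-fold, while of the response genes Etv3, Tnip3, Cd163, and Socs3 lie below −1 at Tl.

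Il10 lies in a run of related genes in the order Il24, Il20, Il19, and Il10 on the chromosome. The other genes of this run did not share its pattern. Il24, a cytokine that signals through the IL-20 receptors, was at 0.08 at Te and at −1.74 and −1.54 later, so that both later arrays were lower by a similar amount (3.53-fold and 3.09-fold). Il19, which signals through the same receptors, was at −4.05, −2.63, and −4.13, and by this probe its Tm level stood apart (1.42 above Te). Its other probe was well above background on no array. Il20 was measured only at Tm, at −3.73, at least 1.70-fold above Te. Il22, a T cell product that acts on epithelia, was at −1.04, −1.98, and −1.88, a difference of −0.94 and −0.84; a near-identical gene, Iltifb, can contribute to its signal, so that its value is uncertain.

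The upstream sequences of 4 receptor genes are shown as examples of the genes that differed by over 2-fold on both later arrays, 3 of them higher and 1 lower, whose values come next. Of these 4 genes, Il17rc did so only by its brighter probe. RefSeq (GRCm38.p6) gives 1 window for each. They are the 250 bases before the start of Il7r (chr15:9529877-9530126, minus strand), Il20rb (chr9:100486474-100486723, minus strand), Il17rc (chr6:113471205-113471454, plus strand), and Il5ra (chr6:106749038-106749287, minus strand), each written 5′ to 3′ in the direction of the gene. Capitals mark the only matches found on either strand to the STAT motif (TTCNNNGAA, in Il7r), the GC box (GGGCGG, in Il20rb, where it lies on the other strand), and the AP-1 motif (TGANTCA, in Il5ra).
Il7r: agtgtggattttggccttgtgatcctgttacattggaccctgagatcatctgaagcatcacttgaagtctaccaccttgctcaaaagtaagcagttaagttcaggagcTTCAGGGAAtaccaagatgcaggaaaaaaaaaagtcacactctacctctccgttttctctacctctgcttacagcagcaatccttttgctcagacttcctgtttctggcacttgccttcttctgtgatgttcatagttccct
Il20rb: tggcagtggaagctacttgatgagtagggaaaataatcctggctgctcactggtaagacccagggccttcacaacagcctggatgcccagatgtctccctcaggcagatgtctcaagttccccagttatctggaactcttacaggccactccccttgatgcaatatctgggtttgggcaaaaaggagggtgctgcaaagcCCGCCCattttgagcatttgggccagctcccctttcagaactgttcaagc
Il17rc: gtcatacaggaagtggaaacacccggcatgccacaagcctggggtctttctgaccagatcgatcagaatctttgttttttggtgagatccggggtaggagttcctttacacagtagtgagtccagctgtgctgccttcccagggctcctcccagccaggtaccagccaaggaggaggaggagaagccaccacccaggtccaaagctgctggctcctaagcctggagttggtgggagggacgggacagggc
Il5ra: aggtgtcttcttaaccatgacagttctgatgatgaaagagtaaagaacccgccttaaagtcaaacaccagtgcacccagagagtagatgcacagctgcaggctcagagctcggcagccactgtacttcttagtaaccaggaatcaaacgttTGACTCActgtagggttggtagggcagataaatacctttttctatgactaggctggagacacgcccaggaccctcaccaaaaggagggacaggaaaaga
Neither these motifs nor the TATA box (TATAAA) or the PU.1 core (GAGGAA) was found in the Il17rc window. Of 64 such windows of 54 interleukin and receptor genes, the AP-1 motif was in 12 (18.8%), beside 6.75% of 32851 windows of all genes, and the STAT motif in 8 (12.5%), beside 7.02%. The GC box was in 17 (26.6%), beside 32.7%, the PU.1 core in 20, beside 23.3%, and the TATA box in 8 (12.5%), beside 12.4%. These are matches of letters and not measured binding sites, and windows of the same gene can overlap.

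Of 5 receptor chains of the IL-17 family, 4 were at least 2-fold higher at Tm (median 1.80), beside 28.2% of all genes, and 2 at Tl (median 0.78), beside 21.3%, and none was lower by 2-fold. Over other scalings and normexp the medians were 0.86 to 2.80 at Tm and 0.51 to 1.98 at Tl. Il17re, which with Il17ra forms the receptor for IL-17C, was at −4.11 at Te and at −1.12 and −1.38 at Tm and Tl. Both later arrays were far above Te, 7.93-fold and 6.62-fold, although with normexp background correction the log2 difference was 1.32 at Tm and 0.97 at Tl in place of 2.99 and 2.73. Il17rc, the partner of Il17ra for IL-17A and IL-17F and the neighbor of Il17re on the chromosome, was at −1.41, 1.28, and 0.17 (2.69 and 1.58 above Te). Its other, dimmer probe was at −3.04, −2.94, and −3.91 and did not show this, so that the median over both probes was 1.39 at Tm and 0.36 at Tl. Il17rb, the chain that binds IL-25, was not well above background at Te and was at −2.69 and −3.71 later, at least 3.48-fold and 1.72-fold higher. Its other probe was measured at Te (−4.08) and Tl (−3.78) and not at Tm. Il17rd was at −2.35, −1.34, and −1.82. Il17ra, the chain shared by the family, was at 1.37, 1.39, and 1.02 and differed by 0.02 and −0.35.

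Of the 6 IL-17 ligands, Il17a and Il17d were at least 2-fold higher and Il17b and Il17c lower at Tm, and Il17b, Il17f, and Il25 were lower at Tl. Over all genes, 28.2% were higher and 17.6% lower at Tm, and 21.7% were lower at Tl. Of the ligand values, 4 of 6 at Tm and 1 of 5 at Tl were bounds. Il17a, the product of a class of T cells, was measured only at Tm, at −2.94, at least 2.94-fold above Te. In the authors' table, which assigns the later arrays the other way round, its Tm value was −0.50 from Te. The scanner files compared there are those of Te and Tl, and Il17a was well above background on neither. Il17f was measured only at Te (−3.46) and was at least 1.53-fold lower at Tm and 3.17-fold lower at Tl. Il17d was at 0.50, 1.74, and 0.48, and its second probe likewise stood apart only at Tm (1.80 above Te, beside 1.25 for the first). Il25 stepped down from 2.34 to 1.53 and 1.10. Il17b was at −2.55 at Te and −3.96 at Tl, 2.65-fold lower, and at least 2.88-fold lower at Tm, where it was not well above background. Il17c was at −2.37 at Te and −3.08 at Tl, and at least 3.26-fold lower at Tm. Among 5 adaptors that IL-17 receptors use, Traf5 was 1.19 and 1.42 above Te and Traf2 1.38 and 0.26, while Traf3ip2, the adaptor best known for this receptor, differed by −0.34 and −0.85. Of 10 genes that keratinocytes switch on in response to IL-17 and IL-22, 5 (S100a7a, Defb4, Defb14, Cxcl5, and Ccl20) were well above background on no array, Lcn2 was 1.32 above Te at Tm and 0.29 at Tl, and Nfkbiz differed by −2.18 and −1.76.

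Il20rb, the shared chain of the receptors for IL-19, IL-20, and IL-24, was at −0.97 at Te and at 1.26 and 0.83 later. Both later arrays lay above Te, 4.71-fold and 3.47-fold. Its partner Il20ra was not well above background at Te and was at −3.95 at Tm and −2.61 at Tl, at least 1.46-fold and 3.68-fold higher. The other partner, Il22ra1, was at −3.10 at Te and −3.73 at Tl and was not well above background at Tm. Il22ra2, a secreted decoy for IL-22, was measured only at Tl, at −3.16, at least 2.52-fold above Te.

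Il34 was the highest above Te of the ligands measured on both arrays compared, at Tm as at Tl. It was at −1.66 at Te and at 0.54 and 0.43 later, 4.58-fold and 4.25-fold higher. The later levels differed from each other by less than the spot error. Its receptor Csf1r was 0.67 above Te at Tm and 0.13 at Tl, and Csf1, the other ligand of that receptor, differed by −0.56 and −0.49. Of the other proteins that bind IL-34, Ptprz1 was 0.84 and 1.21 above Te and Sdc1, a syndecan of epithelia, 2.59 and 2.06. Il16, a chemoattractant for CD4+ cells, was at 1.20, 1.01, and 1.30 and differed by −0.20 and 0.09.

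Among the receptors of the common gamma chain, Il7r stood apart. This chain binds IL-7 and, with Crlf2, the epithelial cytokine TSLP. It was at −0.11 at Te and at 2.37 and 2.43 later. The later arrays were alike and lay 5.59-fold and 5.82-fold over Te. Crlf2 was at 2.53, 4.80, and 3.64 (2.27 and 1.10 above Te), and Tslp at 0.84, −0.93, and 0.33 (−1.77 and −0.52). Il2rg itself was at 3.69, 2.97, and 2.99 (−0.71 and −0.70 from Te), with the later arrays again alike. Il21r was at −2.05, −1.42, and −1.85 and Il9r at −2.69, −2.92, and −3.49.

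Il15, which supports T and NK cells, was at 0.38, −0.10, and −0.21. Il15ra, which holds IL-15 at the cell surface, stepped from 7.45 at Te to 6.86 and 6.36, a difference of −0.58 at Tm and −1.08 at Tl (−0.09 at Tl with quantile normalization), and its second probe gave −0.51 and −0.53. Il2, a product of T cells, was measured only at Te (−2.77) and was at least 2.46-fold lower at Tm and 5.11-fold lower at Tl. Il4 was at −3.07, −3.60, and −4.66, by a probe with 10 spots, so that its Tl level was 3.02-fold lower. Il13 was well above background only at Tl (−3.95), although its signal at Tm (−3.83), not well above background there, was no lower.

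Receptor chains for IL-4 and IL-13 stayed within 2-fold of Te on both later arrays, except the decoy. Il4ra was at 5.16, 4.86, and 4.52 (−0.30 and −0.64), with 0.60 and −0.05 by its other probe. Il13ra1, its partner, was at 3.09, 3.53, and 3.83 (0.44 and 0.74; −0.07 at Tm with quantile normalization). Il13ra2, a decoy for IL-13, was at 1.78, 0.59, and 0.63, and thus 2.28-fold and 2.21-fold lower on the later arrays. Of 13 macrophage genes that IL-4 and IL-13 induce, Arg1 was well above background on no array, and 12 had a value, with medians of 0.30 at Tm (−0.03 with the 75th percentile over measured probes) and −0.32 at Tl (−0.05 with quantile normalization, 0.88 without scaling, and 0.66 in the authors' table). Most stayed within 2-fold, such as Retnla (−0.02 and −0.28) and Clec10a (−0.28 and −0.35). Cdh1, which encodes the adhesion protein E-cadherin of epithelia and Langerhans cells, was 4.49 and 4.53 above Te, and Pdcd1lg2, a ligand of PD-1, differed by −0.64 and −1.83.

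The chains of the IL-3 and IL-5 receptors, which pair with the common beta chain, lay lower (medians −1.42 and −1.38, and −1.76 to −1.12 and −1.57 to −0.18 over other scalings and normexp). Il5ra, known from eosinophils, was at 1.32 at Te and at −0.80 and −0.02 later. Te was the highest of the 3, with 4.34-fold less signal at Tm and 2.53-fold less at Tl. Il3ra stepped from 2.74 to 2.01 and 1.33 (1.66-fold and 2.67-fold lower). Their shared chains Csf2rb (0.15 and −0.16) and Csf2rb2 (0.33 and −0.20) stayed near their Te level, and Csf2ra, the GM-CSF chain of the same family, was 2.11 and 1.40 above it. The ligands Il3 and Il5 were well above background on no array.

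Of 14 genes of the IL-6 and IL-12 families, 10 had a value, and none differed by 2-fold at Tl. Over all genes, 21.3% were at least 2-fold higher at Tl and 21.7% lower. Il6 was at −3.31, −3.81, and −3.14, Il6ra, its receptor, at 3.84, 3.78, and 4.20, and Il6st at −0.11, −0.33, and 0.40. Il11 (−3.35, −2.02, and −3.33) and Il11ra1 (2.98, 4.33, and 3.46) were at least 2-fold higher at Tm alone, beside 28.2% of all genes higher at Tm. The sequence of Il11ra1 is close to that of Il11ra2, for which no probe was matched, and its value is uncertain for this reason. Il27, a product of macrophages that restrains T cells, was at −0.02, −0.77, and −0.95, and its receptor chain Il27ra at −1.79, −2.70, and −2.70. Il31ra, which with Osmr senses the itch cytokine IL-31, was at −0.78, −1.67, and −1.74, while Osmr was 0.66 and 1.40 above Te. Il31 was measured only at Tl, at −4.82, too dim there for a fold. Its signal at Te, not well above background, was −4.60. Il12rb1 differed by 0.76 and 0.32 (1.69 and 0.61 by its other probe) and Il12rb2 by −0.14 and −0.06 (−0.65 and −0.79). Of the other chains and ligands of these groups, Lifr differed from Te by −1.80 and −1.12.

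In the group of receptors related to the IL-1 receptor, Il1rl2 and Il18rap differed in opposite directions. Il1rl2, the receptor for IL-36, was at 0.84 at Te and at 1.90 and 1.96 later, 2.10-fold and 2.18-fold higher. Its ligands Il1f6 and Il1f9 were measured on no array, Il1f8 only at Tl (−4.79), and the antagonist Il1f5 only at Tl (−4.08, at least 1.33-fold above Te). Il18rap, the accessory chain of the IL-18 receptor, was at −1.87, −4.04, and −3.70, 4.51-fold and 3.56-fold lower. Its Tm level lay close to the lowest signal well above background on that array (−4.07). Il18r1, the other chain and its neighbor on the chromosome, was at −1.06, −0.33, and −0.60 by its brighter probe (0.74 and 0.46 above Te). The second probe of Il18r1 gave −4.09, −0.42, and −0.28, which is 3.67 and 3.81 above Te and past 10-fold, so that the size of its difference depends on the probe. The Te level of this second probe was dim, near the lowest signal well above background on that array (−4.49). Il1rapl1, best known from neurons, was measured only at Te (−3.69) and was at least 1.30-fold lower at Tm and 2.70-fold lower at Tl.

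Both genes that carry only the symbol were lower at Tl. Il4i1, an enzyme of activated macrophages that breaks down phenylalanine, was at 1.28, 1.07, and 0.13. Il1bos was at −2.98 at Te and −4.67 at Tl (3.24-fold lower) and not well above background at Tm (at least 2.14-fold lower). Amplified cDNA does not keep the strand, so that signal of Il1bos and of the overlapping Il1b cannot be told apart.

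**Figure D3:**
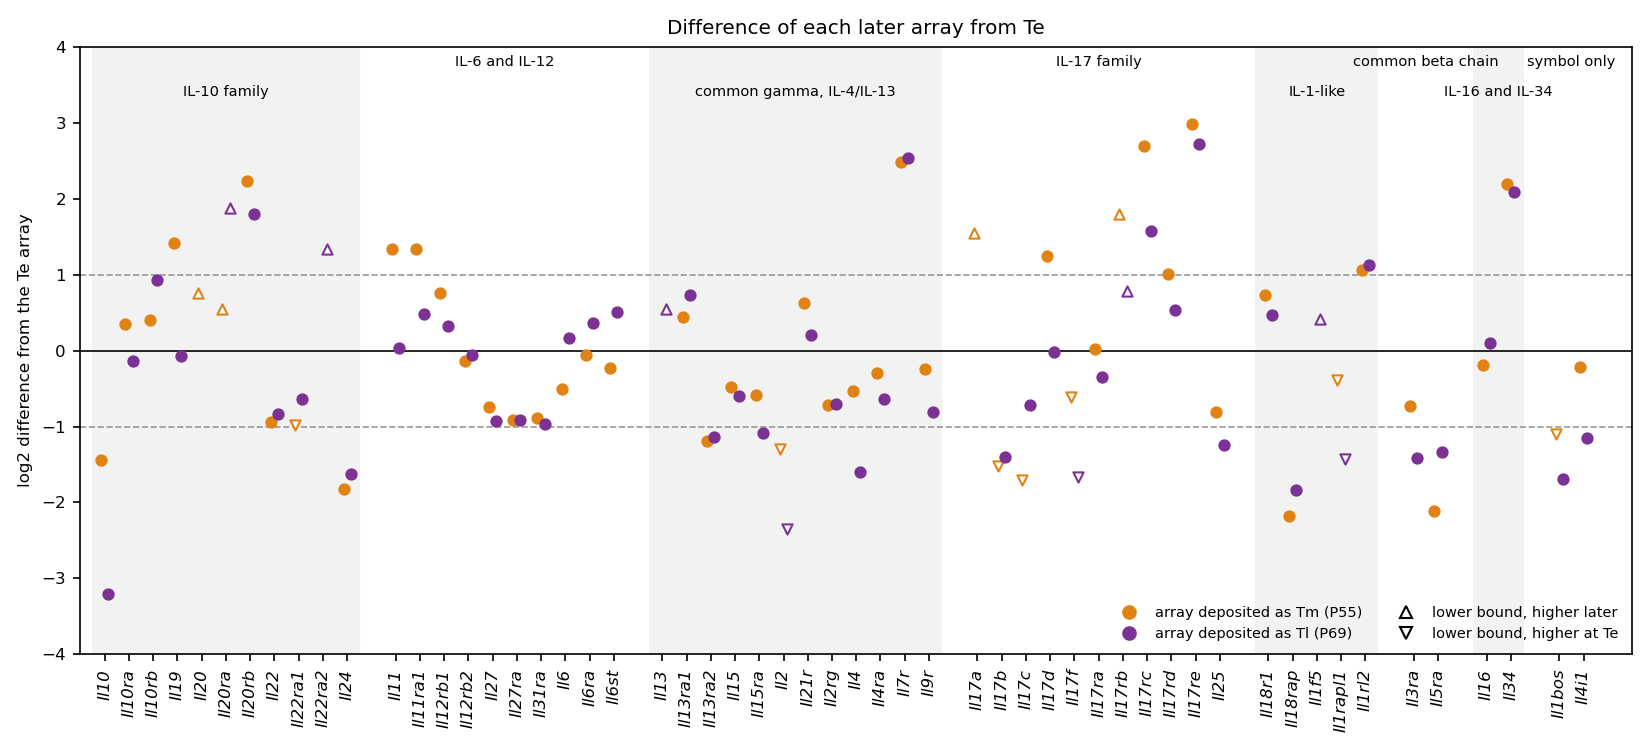
Log2 difference of each later array from the Te array (y axis) for each interleukin and receptor with a value (x axis, grouped by family). Circles were measured on both arrays, triangles are lower bounds of the size, and dashed lines mark 2-fold. Of the genes measured on both arrays, Il17re, Il17rc (by its brighter probe), Il7r, Il20rb, and Il34 lie highest. Il10 is the lowest at Tl (−3.21), and Il18rap is the lowest at Tm (−2.17), where its level is near the lowest measured signal.

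Downstream of these receptors, the 4 Janus kinases stayed within 2-fold except Jak3, the partner of the common gamma chain, which stepped from 1.81 to 1.17 and 0.35 (−1.46 at Tl). Of 7 STAT factors, Stat5b was 1.57 and 1.07 above Te, Stat5a 1.12 and 0.48, and Stat2 0.95 and 1.10, whereas Stat3, which IL-10 and IL-6 use, differed by −0.34 and −0.66. Stat6, which IL-4 and IL-13 use, differed by 0.14 and −0.41. Of 8 SOCS inhibitors, Socs2 differed by −1.13 at Tm, Socs3 by −1.06 at Tl, and Socs5 by 1.35 at Tl, and the medians were −0.06 and −0.26 (0.24 and 0.94 without scaling).

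Genes of other cell types moved beside several of these values. The T cell list of 12 genes had 5 at least 2-fold higher and 1 lower at Tm, and 2 higher and 2 lower at Tl, and it summed to 3.88, 4.36, and 3.91 on the 3 arrays. Its CD3 genes summed to 0.48, 2.24, and 1.31, a rise led by Cd3e. Cd3d (0.09, 0.77, and −0.11) and Cd3g (−2.80, −2.13, and −1.81) stayed within 2-fold. Cd3e was at −2.75, 1.41, and 0.30 and Cd247 was not well above background at Te. Outside the CD3 genes, Cd2 (2.54 and 2.06), Cd5 (1.98 and 0.49), and Thy1 (1.38 and 0.98) were higher on both later arrays. In contrast, Zap70 (−1.13 and −1.28), Cd28 (−0.94 and −1.14), and Lck (−0.82 and −0.72) were lower on both. The Langerhans and dendritic cell list of 6 had 2 genes at least 2-fold higher at Tm and 2 higher and 1 lower at Tl, and summed to 4.25, 6.99, and 6.19, led by Cd207 (3.78, 6.73, and 5.88), which encodes langerin, and Itgax (1.59, 4.28, and 3.73), while Flt3, Xcr1, and Ccr7 differed by −0.96, −0.94, and −1.73 at Tl. The keratinocyte list lay higher as well, with Krt5 at 1.59, 5.52, and 4.89 and Krt14 at 1.22, 4.32, and 4.07. Keratinocytes, T cells, and Langerhans cells are known to express Il34, Il20rb, Il1rl2, Il17re, or Il7r, and the part of these cells in the differences of those genes was not tested.

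Beside the genes that were lower later, the mast cell list of 8 summed to 1.94, 0.94, and 0.55, where only Tpsb2 passed 2-fold (−1.21 and −2.09) and the defining gene Ms4a2 was well above background on no array. The 9 neutrophil genes summed to 6.40, 5.81, and 5.48, nearly all of it from Csf3r (6.37, 5.66, and 5.38). In this list 1 gene was at least 2-fold higher (Cxcr2) and 1 lower (Ltf) at Tm. At Tl, 1 was higher (Cxcr2) and 2 lower (Ltf and Ngp), and Elane was well above background on no array. The 5 B cell genes summed to 2.35, 1.52, and 1.60, most of it from Cd79b (2.18, 1.41, and 1.49), which stayed within 2-fold. None of them was higher by 2-fold, 1 was lower at Tm and 2 at Tl, and Cd79a was well above background on no array. The 8 fibroblast genes summed to 6.52, 5.40, and 5.53 and the 6 endothelial genes to 4.47, 3.36, and 4.24, with 3 and 4 genes at least 2-fold lower at Tm and 3 and 1 at Tl, where 1 fibroblast gene (Dpt) was higher. In the macrophage list 3 of 15 genes were at least 2-fold lower on each later array and none higher, and it summed to 9.91, 9.68, and 9.17. The part of these cells in the differences of Il10, Il24, Il5ra, Il13ra2, and Il18rap was not tested.

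**Figure D4:**
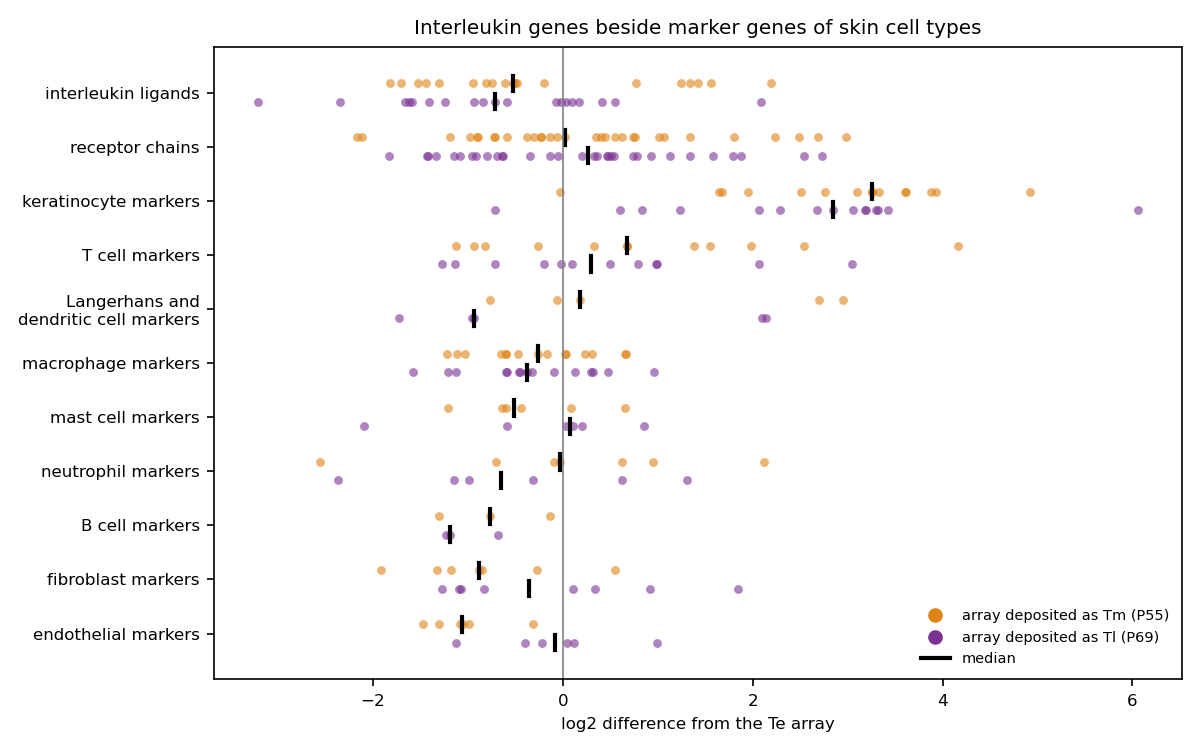
Log2 difference from the Te array (x axis) of the interleukin ligands, the receptor chains, and the marker genes of skin cell types (y axis), with 1 point per gene and later array, lower bounds included, and a black line at the median. Keratinocyte genes lie farthest to the right (medians 3.25 and 2.85), and the medians of the receptor chains (0.02 and 0.26) and macrophage markers (−0.26 and −0.38) lie near 0.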

How the data were processed

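Macrophages from mouse backskin were profiled on 3 Agilent arrays in 1 color, 1 per telogen stage, all on 1 slide. The authors scanned the arrays and quantified them with Feature Extraction 10.7.3.1 (processing notes of the submitters). The deposited intensity of each spot is on a linear scale, background-corrected by that software and not normalized between arrays. The authors also deposited a log2 table restricted to varying probes, centered per probe, with a normalization that is not given in the sources used here; it was an alternative only. The labels place Te at day 42, the paper at a later day.

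Each array's processed signals were put on the log2 scale, and the 75th percentile over its non-control spots was subtracted. Spots marked as outliers were left out (162, 274, and 281 on the Te, Tm, and Tl arrays), spots of a probe were averaged, and a probe was called measured where the software found a share of 0.5 or more of its spots well above background. Where 1 side was not, the bound was set by the lowest signal well above background on that array or the probe's own signal, whichever was higher, and no fold was given when this was under 1. Probes were named by their RefSeq transcript through a table of mouse genes (GRCm38.p6), which named 26056 of 55681 probes. The brightest probe on average over the arrays stood for its gene; 12 of the 70 genes had several probes. A difference was counted past 2-fold, and past 10-fold as in the study's methods. With 1 array per stage no test was run and no p-value is given; the number of arrays limits the precision. The t-test of the study's methods was not applied.

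The members, the lists (partners of gp130 and the common beta chain, IL-34 receptor axis, Janus kinases, STAT factors, SOCS inhibitors, response genes of IL-10, of IL-4 and IL-13 and of IL-17 and IL-22, IL-17 receptor adaptors, and markers of macrophages, keratinocytes, T cells, mast cells, neutrophils, Langerhans and dendritic cells, B cells, fibroblasts, and endothelium), and the alternatives were chosen with earlier results of these data known. Values are given for Il10 and its receptor, members past 2-fold in 1 direction on both later arrays, members measured on exactly 1 array, members whose probes disagree past 2-fold, and a set of 16 chosen cytokine and receptor genes. The other genes and the markers named were chosen after their values were seen. Cd68, Tpsab1, Ly6g, Zbtb46, and Itgae had no matched probe. Some genes of the lists are not reported here by their own values. Alternatives were other scalings, normexp (offset 50), other filters on dim probes, the median over probes, outlier spots kept, the authors' table, and the later arrays exchanged. The steps were tested on simulated data and run in Python 3.11.15 (pandas 2.3.3, NumPy 2.4.6) and R 4.3.3 (limma 3.58.1).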

Additional observations from a re-analysis of the deposited data

How the results depend on the processing

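With 1 array per stage, neither a replicate could be left out nor a spread between samples be measured, and dim probes near the lowest signals give only bounds. The number of genes measured per array kept within 1.5 times under every alternative run on it (55, 52, and 58 at Te, Tm, and Tl where a positive and significant signal sufficed). No paired analysis was possible because each group holds 1 array.

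At Tl, the 8 genes at least 2-fold higher became 13 with quantile normalization, 5 with normexp, 13 without a filter on dim probes, 17 in the authors' table, 13 with the later arrays exchanged, and 27 without scaling between arrays. The 15 lower became 9 with quantile normalization, 9 exchanged, and 2 without scaling. Past 10-fold, where none was found, 1 was higher with quantile normalization, and 2 each without a filter, in the table, and without scaling; 1 was lower with the 75th percentile over measured probes (Il10, at −3.38), 2 without a filter, and 1 in the table. The median of −0.14 became −0.32 with that percentile, −0.49 with normexp, −0.35 with the filter on both arrays, −0.52 without a filter, −0.35 with the median over probes, 0.16 in the table, and 0.90 without scaling.

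At Tm, the 13 higher became 8 with normexp and 8 exchanged. The 9 lower became 17 with the percentile over measured probes, 5 with the filter on both arrays, 16 without a filter, 15 in the table, and 15 exchanged. Past 10-fold, 1 was higher with quantile normalization and 2 each without a filter and in the table; 1 was lower without a filter and 2 in the table. The median of −0.22 became −0.56, −0.012 without a filter, −0.50 in the table, and 0.078 without scaling.

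Among differences past 2-fold, direction turned at Tl without scaling for Il13ra2 (0.049), Il15ra (0.11), Il4i1 (0.038), and the B cell median (0.23), and at Tm for Il17a (−0.50), Il19 (−0.043), and the endothelial median (0.078) in the table, for Il19 (−0.19) with the median over probes, and for Il17d (−0.017) and Il19 (−0.074) with the arrays exchanged. Of 45 differences past 2-fold, 45 kept their sign with the percentile over measured probes (40 past 2-fold), quantile normalization (33), and normexp (36), 42 without scaling (30), 43 in the table (32), and 41 of 43 exchanged (28). Medians under 2-fold also turned at Tl without scaling, for the ligands (0.60), macrophage markers (0.82), SOCS inhibitors (0.94), and response genes of IL-10 (0.36) and of IL-4 and IL-13 (0.88), among others. Leaving the scaling out moves every difference between 2 measured levels at Tl by the same amount, and the median of all genes went from 0.12 to 1.31. The authors' Tm column matches the scanner file of Tl, so its turns at Tm and those of the exchange rest on the same arrays. The cause of the other shifts was not tested. The percentile over probes in place of spots and the scaling left out were chosen after seeing the data.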
